A study of Mus musculus with 6 samples.

Results

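First-intron peaks are regions of open chromatin that lie inside the first intron of a gene, between its first and second exon. Chromatin was profiled by ATAC-seq, in which a transposase places sequencing adapters wherever DNA is accessible. The members were taken by position: peaks that the authors' annotation calls intronic and places in intron 1 of a transcript, whatever the number of introns. They numbered 5638 of 70494 peaks (8.0%), and 30.6% of the intronic peaks. The other 12780 intronic peaks, in later introns, served for comparison. No first-intron peak with a measured distance lay within 3 kb of the start of its named transcript, so that stretch is left out.

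The cells were definitive endoderm differentiated from mouse epiblast stem cells of the line 7H OTX2-dTAG-EGFP, of BL6/129 hybrid strain, in which the transcription factor OTX2 carries a degradation tag and EGFP. All cultures received 40 ng/ml Activin A with 3 uM CHIR for 16 h, then 100 ng/ml Activin A with 100 nM LDN for 24 h. At the primitive streak stage, cells were given dTAG13, which brings about degradation of the tagged protein, or its vehicle DMSO, for 24 h, with 3 libraries each. The level of OTX2 itself was not measured in these data. Each library came from 50000 sorted live cells of this 1 line, so the control group carries the tagged protein too. The 3 libraries of a group are described as technical replicates, so the errors below measure the spread between libraries and need not include that between cultures. For each peak a single mean over the 6 libraries and a single fold change were deposited. Values per library are therefore not analysed here, and the depth of each library is not given.

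Introns are removed from the transcript, but their DNA often holds enhancers and other regulatory elements. The first intron is usually the longest, and it adjoins the promoter. OTX2 is a homeodomain factor of the paired-like bicoid class. It binds sites with the core GGATTA, and it is known for its part in forming the anterior embryo, including the anterior endoderm. All 8 endoderm marker genes looked up (Cer1, Cxcr4, Epcam, Foxa1, Foxa2, Gata4, Gata6 and Sox17) had a promoter peak, while none of the 4 blood markers did. Promoter peaks were also found at 4 of 6 markers of pluripotent cells, 3 of 6 of mesoderm and 4 of 4 of neural ectoderm, and open promoters do not show expression. A level here is the mean normalized count of a group, computed from the deposited mean and fold change. Summed promoter levels of the endoderm markers were 400.0 in DMSO and 323.3 in dTAG13, and those of the pluripotency markers 78.1 and 36.6. Those of the mesoderm markers were 32.8 and 30.3, and those of the neural ectoderm markers 110.7 and 134.7. At an adjusted p under 0.05, 1 endoderm and 2 pluripotency promoter peaks were lower in dTAG13, and 1 neural ectoderm peak was higher. No other promoter peak of these markers was called. The part of such differences in the results below was not tested, and fewer cells with an open site cannot be told apart from less opening per cell.

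The sequences below show what a changed first-intron region looks like. The lower ones were chosen for holding the OTX word, among the 10 lower peaks with the smallest p-values, and a region on chromosome 8 was not taken. The higher ones are those with the smallest p-values. Each is the central stretch of 200 bases, read on the forward strand of GRCm38 (mm10). The first 4 were lower in dTAG13 and contain the OTX word, which is in capitals. They lie at chr11:81926560-81926759 (Asic2), chr2:156427852-156428051 (Epb41l1), chr1:44622851-44623050 (Gulp1) and chr17:62752619-62752818 (Efna5).
Asic2: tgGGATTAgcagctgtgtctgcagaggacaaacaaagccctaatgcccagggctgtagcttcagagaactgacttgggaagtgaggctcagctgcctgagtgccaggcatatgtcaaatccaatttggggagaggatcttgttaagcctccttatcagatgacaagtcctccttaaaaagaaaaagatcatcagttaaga
Epb41l1: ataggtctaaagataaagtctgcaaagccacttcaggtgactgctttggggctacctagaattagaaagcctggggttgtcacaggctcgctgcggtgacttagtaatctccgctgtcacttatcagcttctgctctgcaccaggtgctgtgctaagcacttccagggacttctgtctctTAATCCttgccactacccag
Gulp1: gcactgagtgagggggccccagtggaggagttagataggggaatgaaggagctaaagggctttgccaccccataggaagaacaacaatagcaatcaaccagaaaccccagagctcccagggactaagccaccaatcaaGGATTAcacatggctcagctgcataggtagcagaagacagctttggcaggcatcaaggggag
Efna5: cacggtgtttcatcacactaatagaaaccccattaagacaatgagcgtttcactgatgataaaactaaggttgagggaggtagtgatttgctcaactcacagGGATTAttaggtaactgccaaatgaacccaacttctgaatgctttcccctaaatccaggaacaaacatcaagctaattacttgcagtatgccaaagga
The next 4 were higher in dTAG13. Capitals mark the T-box word AGGTGTGA and the TEAD word GGAATG where present. They lie at chr1:37327352-37327551 (Inpp4a), chr4:104935442-104935641 (Fyb2), chr9:119425432-119425631 (Acvr2b) and chr13:104822483-104822682 (Srek1ip1).
Inpp4a: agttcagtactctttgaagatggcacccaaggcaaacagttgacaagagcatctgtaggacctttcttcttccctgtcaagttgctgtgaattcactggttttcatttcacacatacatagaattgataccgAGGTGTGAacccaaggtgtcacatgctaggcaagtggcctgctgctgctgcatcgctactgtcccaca
Fyb2: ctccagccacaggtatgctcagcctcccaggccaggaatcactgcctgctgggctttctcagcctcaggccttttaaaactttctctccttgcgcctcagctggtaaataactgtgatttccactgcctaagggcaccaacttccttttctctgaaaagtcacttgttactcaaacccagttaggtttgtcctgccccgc
Acvr2b: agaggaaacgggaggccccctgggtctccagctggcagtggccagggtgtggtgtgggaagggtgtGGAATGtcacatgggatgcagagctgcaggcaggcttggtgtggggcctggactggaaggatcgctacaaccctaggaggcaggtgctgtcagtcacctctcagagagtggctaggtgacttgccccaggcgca
Srek1ip1: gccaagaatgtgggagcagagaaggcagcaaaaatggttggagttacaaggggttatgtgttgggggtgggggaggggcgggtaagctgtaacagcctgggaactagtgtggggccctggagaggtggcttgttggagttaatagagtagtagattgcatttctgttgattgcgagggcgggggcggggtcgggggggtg
In these stretches, 1 of the 4 higher regions holds the T-box word and 1 other the TEAD word. Of the 4 lower regions, 1 (Gulp1) holds the TEAD word too, left in small letters there. No match says only that the letters are absent from the window.

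First-intron peaks were spread over 2737 host genes, 57.3% of which had a single one, and 189 genes had 5 or more. Of these peaks, 4780 (84.8%) name a transcript version found in GENCODE release 21, and in all 4780 the peak overlapped the first intron of that transcript, 2414 on the plus and 2366 on the minus strand. Their median distance from the start site of that transcript was 25230 bases (quartiles 10860 and 63863), against 73692 for later introns. The smallest was 3050 bases, so the values here describe first introns beyond 3 kb from their own start. Even so, 173 of the peaks lay within 3 kb of some annotated start site. The introns that held them were long, with a median of 59482 bases, and the median peak lay 55.0% of the way through. Only 3668 peaks (65.1%) had the host gene as the authors' nearby gene, so the host is used as the name here. In 4712 peaks (83.6%) the region was intron 1 in every annotated transcript of the gene that held it as intron.

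Per length, first introns held more peaks than later ones. With 1 coding transcript per gene, and without exons and the 3 kb around any start, there were 4284 peaks in 167.6 megabases of first intron and 10673 in 528.1 megabases of later introns. That is 25.6 and 20.2 peaks per megabase, a ratio of 1.26, which became 1.18 with all transcripts. First-intron peaks had a median length of 118 bases, a GC content of 52.2% and a mean normalized count of 5.73, against 113 bases, 51.7% and 5.46 in later introns. Most therefore rested on few reads. The strongest first-intron peaks were at Filip1l (chr16:57391122-57391676), which encodes a filamin-interacting protein, with a mean normalized count of 737.0, at Kazn (137.1) and at the netrin receptor gene Unc5b (129.6). None of these 3 was called. In the authors' deposited table the log2 fold change was 0.00 (SE 0.09) at Filip1l, 0.19 (SE 0.15) at Kazn and 0.21 (SE 0.17) at Unc5b.

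Of the first-intron peaks, 195 belong to Gm20388 on chromosome 8, a predicted transcript whose first intron spans 4384 kb. Those peaks have 61 different nearby genes and never Gm20388 itself. They include 16 lower and 1 higher call, at regions whose nearby genes include Ankrd11, Zfpm1, Banp and Usp10. Without them, 319 lower and 98 higher calls were left.

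More first-intron peaks were lower than higher in dTAG13. In the authors' deposited table, 335 of 5477 first-intron peaks with an adjusted p (6.12%, Wilson interval 5.51 to 6.78%) were lower in dTAG13 at an adjusted p under 0.05, and 99 (1.81%, 1.49 to 2.20%) were higher. Over all 69128 tested peaks the shares were 3.79% lower and 1.47% higher, 5.26% in all, so the lower share of first introns was above that of the whole table. Promoter peaks within 1 kb of a start, which make up much of the table, had 1.0% lower. The lower calls made up 77.2% of the first-intron calls. That balance moved with the normalization. When all fold changes were shifted so that the median peak stood at 0, 277 lower and 147 higher calls were found (65.3% lower). A shift made separately within deciles of GC content gave 203 and 185 (52.3% lower), and over all peaks that shift gave 1434 lower and 2009 higher calls. With the median of the peaks in both pooled lists at 0, first introns had 415 lower and 75 higher calls (84.7% lower). The remaining 161 first-intron peaks had no adjusted p in the deposited table.

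In later introns the lower share was slightly smaller. Lower calls made up 5.37% (668 of 12430, interval 4.99 to 5.78%) of their tested peaks and higher calls 1.71% (213 peaks). The difference in lower calls was 0.742 percentage points, with an interval of 0.012 to 1.51 that treats peaks as independent, and the interval included 0 without the Gm20388 peaks (0.661, -0.074 to 1.44). Higher calls differed by 0.094 points (-0.309 to 0.537). Peaks of 1 gene or 1 library are not replicates, so no test was made and neither share is called particular to first introns. Intron 2 had 5.73% lower and 2.07% higher calls, and distal intergenic peaks 5.11% and 1.67%.

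**Figure D1:**
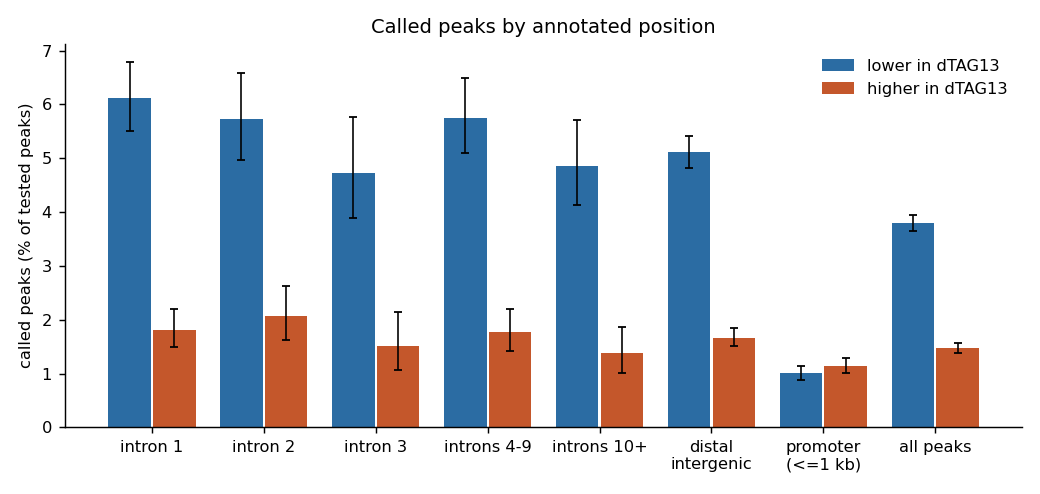
Bars give the peaks called lower (blue) or higher (orange) in dTAG13 at an adjusted p under 0.05, in percent of the tested peaks of each annotated position, with Wilson intervals at 95% over peaks. Intron 1 stands at 6.12% lower and 1.81% higher, intron 2 at 5.73% and 2.07%, and promoters at 1.0% and 1.15%.

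The whole set leaned the same way. The median log2 fold change of first-intron peaks was -0.51 (quartiles -1.60 and 0.32), against -0.40 in later introns and -0.18 over all peaks. It depended on which peaks were counted: among the 1965 found in both pooled peak lists it was 0.03. Of all first-intron peaks, 2909 (51.6%) were in the DMSO list alone, 764 (13.6%) in the dTAG13 list alone and 1965 (34.9%) in both. For later introns these shares were 49.6%, 14.3% and 36.1%. Of the lower calls 303 were in the DMSO list alone and 32 in both lists, and of the higher calls 69 were in the dTAG13 list alone and 30 in both. The lists come from the same libraries as the fold changes, so membership is no independent support. DMSO libraries also seem to hold more reads, as given below, and the part of this in the list shares was not tested.

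By distance from the start site, lower calls made up 6.03% of tested peaks at 3 to 10 kb, 6.36% at 10 to 30 kb, 5.61% at 30 to 100 kb and 6.68% beyond 100 kb. In later introns the same bins gave 4.40%, 4.86%, 5.23% and 5.76%. By signal, the lower share was 3.98% under a mean normalized count of 5, 5.70% at 5 to 10, 11.2% at 10 to 20 and 7.38% from 20 upward. Later introns had 3.84%, 4.91%, 8.63% and 10.2% in these bins, so from 20 upward their share was above that of first introns. The higher share of first introns was 1.13%, 1.47%, 2.67% and 4.70% in the same bins of signal. A call needs enough reads, so the shares under 5 are limited by depth.

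**Figure D2:**
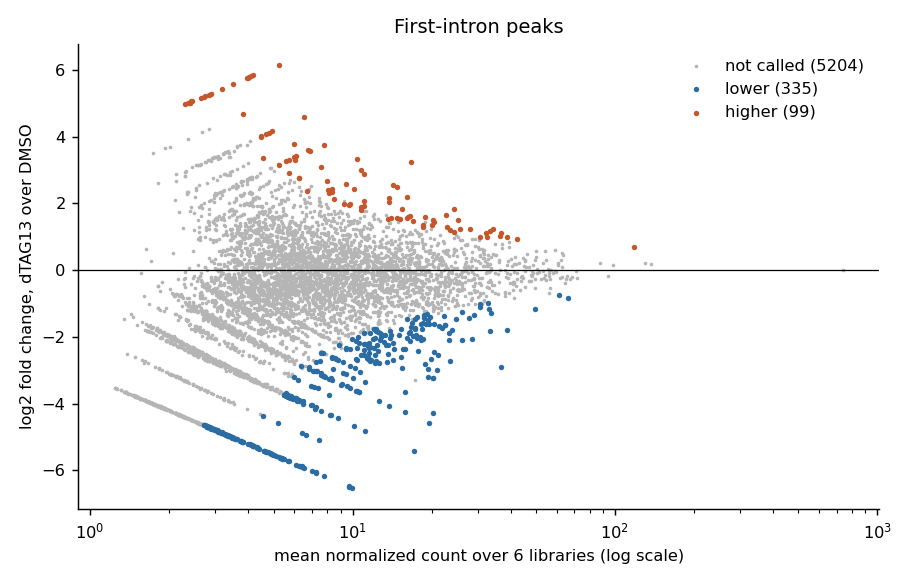
Each point is 1 of the 5638 first-intron peaks, with its mean normalized count over the 6 libraries on a log scale and its log2 fold change of dTAG13 over DMSO, both from the authors' deposited table. The 335 lower calls (blue) and 99 higher calls (orange) lie at the edges, and the slanted lines at low counts are peaks in which 1 group had 0 or few reads.

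Most lower calls had few reads left in dTAG13. In the authors' deposited table, log2 fold changes had medians of -3.48 for the 335 lower calls (median SE 0.91) and 2.43 for the 99 higher calls (median SE 0.68). Group levels, computed from the deposited mean and fold change, had medians of 14.8 in DMSO and 1.55 in dTAG13 for lower calls. For higher calls they were 2.73 in DMSO and 15.4 in dTAG13. In 225 lower calls (67.2%) dTAG13 averaged under 3 reads per library, and 111 of them had no read in dTAG13. The corresponding numbers for DMSO in higher calls were 44 (44.4%) and 19. By the steps between fitted levels, 1 read came to 0.393 of a dTAG13 level and 0.264 of a DMSO level. The DMSO libraries thus seem to hold more reads, and 3 reads per library stood for 3.54 in dTAG13 and 2.38 in DMSO. The part of this imbalance in these counts was not tested. When groups below 3 reads per library were set to that value, the medians were -1.78 and 1.79. Low counts were uneven: 36 lower calls had 2 reads in dTAG13 but only 5 had 1.

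Among lower calls, the smallest p-value was in intron 1 of 9 of Asic2, a subunit of acid-sensing ion channels (chr11:81926373-81926945, 41.8 kb from the start site). Its level was 64.7 in DMSO and 8.57 in dTAG13, and the authors' deposited table puts its change at -2.92 log2 units (SE 0.39, adjusted p 5.88e-10). At Epb41l1, which encodes a cytoskeletal protein of the band 4.1 family (chr2:156427785-156428118), the levels were 38.5 and 1.99, the latter under 3 reads per library. The deposited change was -4.28 (SE 0.73, adjusted p 1.29e-05). Both regions were in the DMSO list alone, and both hold the OTX word shown above. In the intron of Gulp1, an adaptor of engulfment receptors (chr1:44622818-44623082), the level fell from 36.5 to 3.89 (-3.23 in the authors' deposited table, SE 0.56, adjusted p 1.4e-05).

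Peaks at Gm43016 (chr5:50587661-50587983) and Gm45408 (chr8:15607735-15608102) were lower, with deposited changes of -4.58 (SE 0.79) and -3.24 (SE 0.56). In dTAG13 the Gm43016 peak, at a level of 1.57, had under 3 reads per library. At Gm26608 (chr5:28065931-28066261) the deposited change was -3.20 (SE 0.58). At Sez6, a membrane protein of neurons (chr11:77934135-77934541), the level was 40.7 in DMSO and 6.12 in dTAG13 (-2.74 in the authors' deposited table, SE 0.48, adjusted p 2.15e-05). The peak at Igsf21, of the immunoglobulin superfamily (chr4:140224093-140224360), had 37.2 and 4.67. At Efna5, a membrane-bound ephrin ligand (chr17:62752421-62753016), the level was 45.9 in DMSO and 10.9 in dTAG13, a change of -2.07 by the authors' deposited table (SE 0.38, adjusted p 6.07e-05). At Tox3, an HMG-box factor (chr8:90332507-90333058), it was 52.1 and 14.7, and this region alone of the 10 was in both pooled lists. All 10 kept their call under each of the centrings and thresholds tried.

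Among higher calls, the smallest p-value was in the first intron of a transcript of Inpp4a, a phosphoinositide phosphatase (chr1:37327246-37327657), where the level was 3.21 in DMSO and 30.2 in dTAG13. The authors' deposited table gives a change of 3.23 there (SE 0.56, adjusted p 1.37e-05), and the region was in the dTAG13 list alone. In Fyb2, an adaptor protein gene (chr4:104935398-104935685), the level rose from 4.52 to 25.1 (2.47 in the authors' deposited table, SE 0.52, adjusted p 0.000568). At Srek1ip1, whose product binds a splicing regulator (chr13:104822434-104822731), it was 10.7 in DMSO and 38.1 in dTAG13 (1.83, SE 0.40). Peaks at Gna14, a G protein alpha subunit, Dera, an aldolase, Vav2, a guanine nucleotide exchange factor, and Adcy5, an adenylyl cyclase, were higher too, with deposited values of 3.01 (SE 0.66), 2.18 (SE 0.50), 2.54 (SE 0.58) and 2.87 (SE 0.68). At Slc15a1, the intestinal peptide transporter, DMSO had no read, and the dTAG13 level was 4.35 times the floor of 3 reads per library.

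**Figure D3:**
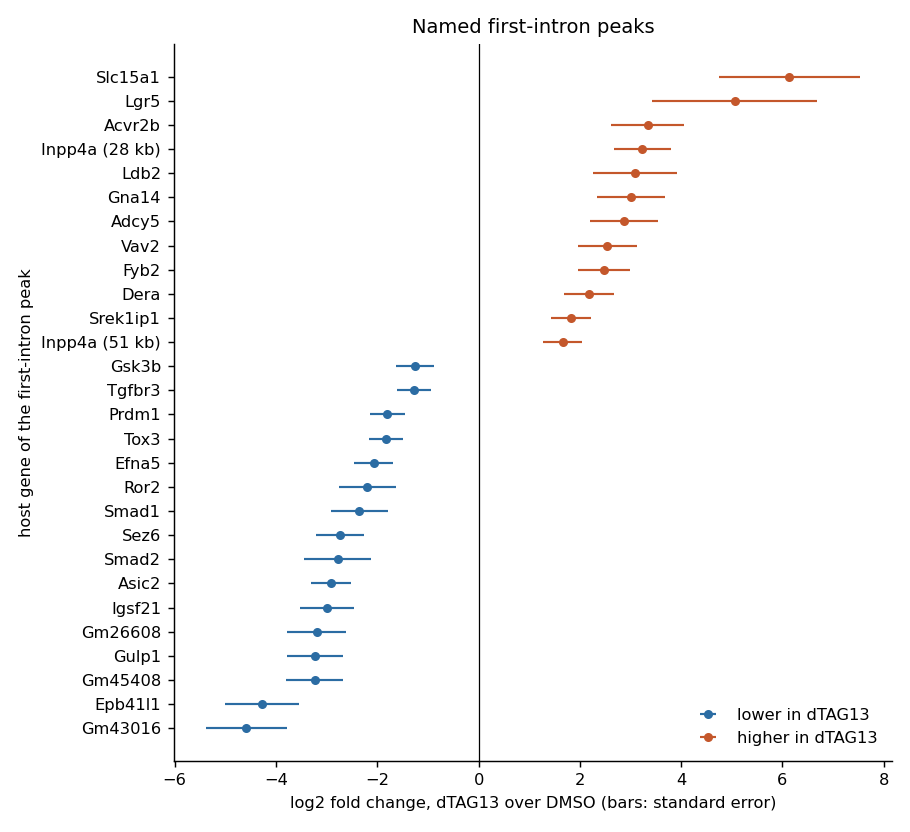
Log2 fold changes of dTAG13 over DMSO (points) with standard errors (bars), from the authors' deposited table, for the 28 called first-intron peaks named by rule. Lower peaks (blue) run from -4.58 at Gm43016 to -1.26 at Gsk3b and higher ones (orange) from 1.66 at Inpp4a to 6.14 at Slc15a1, where DMSO had no read.

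The OTX word was frequent in lower calls and rare in higher ones. GGATTA, on either strand within 100 bases of the midpoint, was present in 109 of 335 lower first-intron peaks (32.5%, Wilson interval 27.7 to 37.7%), in 583 of 5204 that were not called (11.2%, 10.4 to 12.1%) and in 2 of 99 higher peaks (2.02%, 0.556 to 7.07%). It occurred in 8.84% of the windows of the same length over all peaks of the table. The share in lower peaks was 33.0% below and 31.7% above the median GC content of intronic peaks. The reversed word ATTAGG, of the same base composition, was in 17.0% of lower, 8.19% of uncalled and 2.02% of higher peaks. In later introns the OTX word was in 37.0%, 10.2% and 1.41%. Median peak length was 213 bases in lower, 112 in uncalled and 173 in higher first-intron peaks, and its part in these shares was not tested. A match is a description and not a binding site.

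First-intron peaks were also split by their number of OTX words. With 0 words, 4.69% of 4814 tested peaks were called lower, and their median log2 fold change was -0.37. With 1 word it was 15.4% of 622 peaks with a median of -1.54, and with 2 or more words 31.7% of 41 peaks with a median of -2.64. Signal below that of DMSO was seen in 62.4%, 87.6% and 95.1% of these peaks. Higher calls numbered 97, 2 and 0. Later introns followed the same order, with 3.82%, 16.2% and 33.05% called lower. Median GC content moved with the number of words as well, at 52.6%, 50.6% and 50.4%, and its part in the result was not tested. Among peaks that were not called, the median change was -1.31 in the 583 with it and -0.37 in the 4621 without it.

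**Figure D4:**
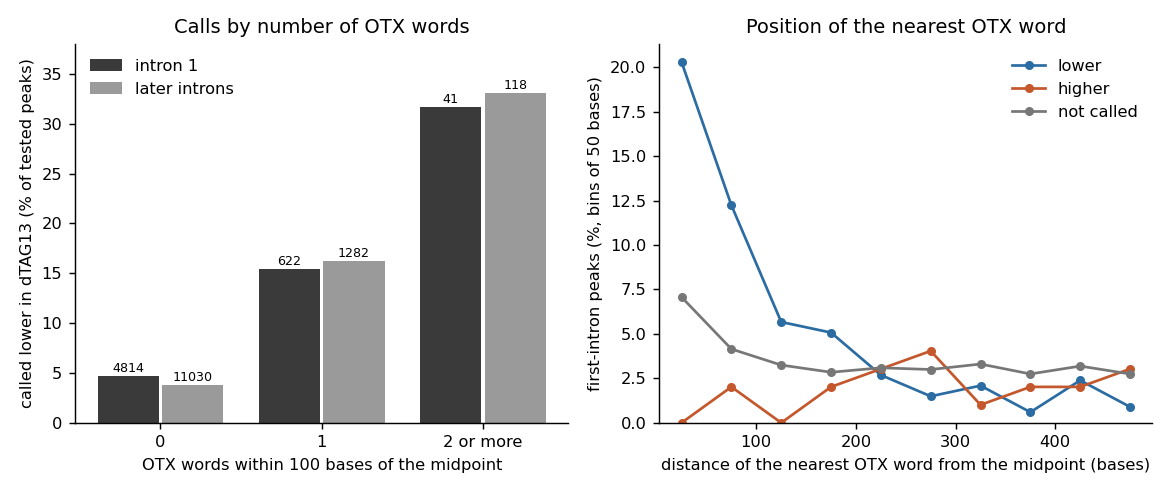
Left, the share of tested peaks called lower in dTAG13 by number of OTX words, in intron 1 and later introns, with the number of peaks above each bar. Right, the share of first-intron peaks whose nearest OTX word lies in each bin of 50 bases from the midpoint: in lower calls it falls from 20.3% in the innermost bin to 0.896% at 450 to 500 bases, and in higher calls the innermost bin holds 0%.

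Words of other factor families were searched in the same window and on both strands. In lower first-intron peaks, the SOX words (ACAATG or ACAAAG) were in 48.7%, against 30.6% of uncalled and 22.2% of higher peaks, and the GATA word AGATAA in 31.6%, 22.0% and 25.3%. Over all peaks of the table, 24.6% held a SOX word and 15.7% the GATA word. Higher peaks had the TEAD word GGAATG in 26.3%, against 14.1% of uncalled and 8.66% of lower peaks, and the T-box word AGGTGTGA in 5.05%, 2.81% and 0.896%. The shares over all peaks were 11.6% and 1.71%. The FOX word TGTTTAC showed similar shares in all 3 classes (7.46%, 6.74% and 7.07% in lower, uncalled and higher), against 5.34% over all peaks. The AP1 word TGANTCA was in 5.07%, 7.48% and 9.09% (6.08% over all peaks), and the homeodomain word TAATTA in 6.87%, 6.17% and 1.01% (4.75% over all peaks). In lower peaks of later introns, SOX words were in 39.2%, TAATTA in 13.6% and the GATA word in 31.1%. Higher peaks of later introns had the TEAD word in 23.9% and the T-box word in 6.10%. The TEAD and T-box shares of higher first-intron peaks rest on 26 and 5 of 99 peaks.

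Among genes of signalling and endoderm regulation, few first introns held called peaks. Of 132 listed genes, 37 had a first-intron peak, 86 in all, and of the 84 tested ones 8 were lower (at 6 genes) and 3 higher (at 3 genes). That is 9.52% and 3.57%, against 6.12% and 1.81% of tested first-intron peaks and 3.79% and 1.47% of all peaks. The list was put together with earlier results of these data known, and nothing is called particular to it. Its median log2 fold change was -0.73.

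Among anterior and endoderm regulators, 5 of 28 genes had such peaks, with 3 lower and 1 higher of 16. All 3 lower ones were in the 71.5 kb first intron of a Prdm1 transcript. Prdm1 encodes the transcriptional repressor BLIMP1, which acts in early endoderm and germ cells. Of the 8 Prdm1 peaks, 7 had a change below 0. The strongest (chr10:44464189-44464829, 64.0 kb from the start) had levels of 60.1 in DMSO and 17.2 in dTAG13, a change of -1.80 by the authors' deposited table (SE 0.35, adjusted p 0.000134). The peak at 21.3 kb went from 22.3 to 5.84 (-1.93, SE 0.54). At 50 kb, the region with an OTX word had no read in dTAG13, and the DMSO level was 2.26 times the floor. The higher peak was at Ldb2, a cofactor of LIM-homeodomain proteins (chr5:44712343-44712480), at 1.61 in DMSO and 13.6 in dTAG13 (3.08 in the authors' deposited table, SE 0.83, adjusted p 0.0112), with under 3 reads per library in DMSO. Gata4, Hnf4a and Ssbp2 had 2 uncalled peaks each.

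Of the NODAL, activin and BMP genes, 11 of 21 had first-intron peaks, of which 3 of 21 were lower and 1 higher. NODAL and activin signal through type II receptors such as ACVR2B to SMAD2, and BMP ligands to SMAD1. At Smad1 (chr8:79378889-79379113), the level was 24.0 in DMSO and 4.70 in dTAG13, with an OTX word, and a change of -2.36 by the authors' deposited table (SE 0.56, adjusted p 0.00321). At Smad2 (chr18:76245695-76245880) it was 21.3 and 3.09 (-2.79 in the authors' deposited table, SE 0.67, adjusted p 0.0034), with under 3 reads per library in dTAG13. Tgfbr3, a co-receptor of TGF-beta family ligands (chr5:107268876-107269233), had 47.6 and 19.7 (-1.27, SE 0.33), a call that was lost under the shift by GC content (adjusted p 0.106). Its window also holds an OTX word. The higher peak was at Acvr2b (chr9:119425427-119425635), at 1.87 in DMSO and 19.0 in dTAG13 (3.34 in the authors' deposited table, SE 0.72, adjusted p 0.000899), with under 3 reads per library in DMSO. It lay at the far end of a 24.9 kb intron, and its nearby gene was 4930516B21Rik.

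Of the WNT pathway genes, 12 of 32 had first-intron peaks, and 2 of 33 tested were lower and 1 higher. Ror2, a receptor tyrosine kinase for WNT ligands, had 6 peaks, and the one called (chr13:53175066-53175312) had an OTX word 3 bases from its midpoint. Its level was 23.4 in DMSO and 5.10 in dTAG13 (-2.20 in the authors' deposited table, SE 0.56, adjusted p 0.00681), and the shift by GC content ended the call (adjusted p 0.0579). At Gsk3b, the kinase that marks beta-catenin for destruction (chr16:38135557-38135846), it was 36.9 and 15.4 (-1.26 in the authors' deposited table, SE 0.37, adjusted p 0.0230). That call was lost with the median of all peaks at 0 (adjusted p 0.0523) or with the shift by GC content (0.263). At Lgr5, a receptor for R-spondins (chr10:115548378-115548457), DMSO had no read and dTAG13 a level of 4.73, 1.99 times the floor. The authors' deposited table gives a change of 5.06 there (SE 1.63, adjusted p 0.0419), on a mean normalized count of 2.43. Hippo and TEAD genes (8 peaks at 5 genes) and FGF and ERK feedback genes (6 peaks at 3 genes) had no call, nor had the single peak of the streak and posterior genes, at Fgf4.

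Several first introns carried more than 1 called peak. Calls with a known host lay in 367 genes, 283 with a lower and 92 with a higher one. Of 42 genes with 2 or more, 30 had only lower, 4 only higher and 8 both. Lower calls made up 77.2% of all first-intron calls, and the same counts were not made for later introns. The genes below were taken for their number of calls, so agreement in direction is not read as a result about them. Apart from Gm20388, 1 gene had 4 calls (Auts2) and 6 had 3 (Asic2, Casr, Cntnap5a, Inpp4a, Prdm1 and Sez6).

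In the first intron of Sez6, which is 22.3 kb long, 3 of 4 peaks were lower, and none holds an OTX word. The deposited changes besides the -2.74 given above were -2.27 (SE 0.63) and -1.94 (SE 0.58). In Casr, the calcium-sensing receptor gene, 3 of 4 peaks were lower, at 24.8, 27.6 and 27.9 kb from the start site. Their levels were 29.2, 15.2 and 13.0 in DMSO and 2.34, 1.14 and 1.96 in dTAG13, all under 3 reads per library. All 3 peaks of Cntnap5a, of the neurexin family, were lower. The one with the highest signal went from 29.6 to 6.98 (-2.08 in the authors' deposited table, SE 0.48, adjusted p 0.00207). The others had under 3 reads per library in dTAG13, and the one with a deposited change of -5.88 had no read there.

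Other introns were mixed. Auts2, whose product associates with Polycomb proteins, had 13 peaks in a 282.4 kb intron. The 3 lower ones lay at 63.7, 76.7 and 87.2 kb from the start, and the first and second of these hold an OTX word. All 3 had under 3 reads per library in dTAG13, and the one at 87.2 kb had no read there. The higher one lay at 224.0 kb, with 1.08 in DMSO and 14.5 in dTAG13 (3.74 in the authors' deposited table, SE 0.94, adjusted p 0.00564), with under 3 reads per library in DMSO. In Inpp4a the lower peak, with an OTX word, had levels of 8.66 in DMSO and 0.419 in dTAG13, the latter under 3 reads per library. The 2 higher ones, at 27.6 and 51.3 kb, had 3.21 and 10.9 in DMSO and 30.2 and 34.6 in dTAG13. Asic2 had 22 peaks, 18 with a change below 0, and 3 lower calls at 41.8, 161.0 and 273.7 kb. The one at 161.0 kb had under 3 reads per library in dTAG13.

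**Figure D5:**
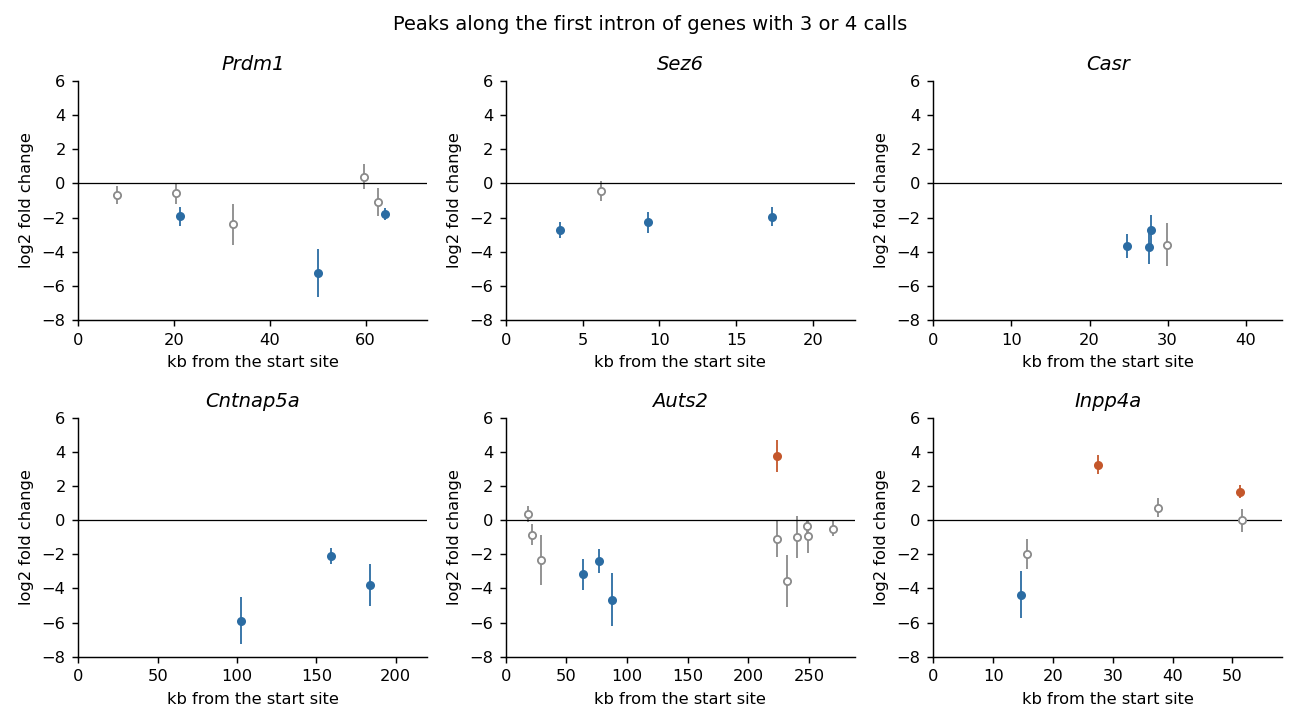
Log2 fold change of dTAG13 over DMSO (points) with standard error (bars) against the distance from the start site of the named transcript, for every first-intron peak of 6 genes. Filled blue points are lower calls, filled orange higher calls and open points uncalled: Prdm1, Sez6, Casr and Cntnap5a have lower calls alone, while Auts2 and Inpp4a have calls in both directions. The Inpp4a peaks belong to 2 transcripts with different start sites.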

How the data were processed

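ATAC-seq peaks of 6 libraries, 3 DMSO and 3 dTAG13, were used. Per the submitters' processing notes, fastp, Bowtie2, MACS2, featureCounts, HOMER 4.11 and ChIPseeker were used on mm10. Their roles, settings, read filters and any shift of read ends are not given in the sources used here. The deposited signal is a mean of read counts divided by size factors, as its column names denote. The deposited log2 fold change and standard error are dTAG13 over DMSO. The deposited score is their ratio (largest difference 8.72e-07), and the deposited p-values follow a two-sided normal test with Benjamini-Hochberg adjustment. Deposited peak positions are per group, pooled.

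No values per library were used, so no count model was fitted, and the authors' calls at an adjusted p under 0.05 were counted. The table has no distance column, so distances were measured from the start of the named transcript. Fold changes are relative to their size factors. Group levels were computed from mean and fold change. Intervals are Wilson, at 95%, for counting error over peaks only. Levels under 0.3 (dTAG13) or 0.2 (DMSO) were taken as no read, from gaps in the fitted values.

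Introns, start sites and gene names came from GENCODE mouse release M21, and sequence from GRCm38. Windows took 100 bases on each side of the midpoint. Named peaks were the 10 smallest p-values per direction, listed genes' best calls, genes with the most calls (ties kept) and the 3 highest counts. Members, lists and rules were chosen with earlier results of these data known. In simulated data over 69128 peaks, 200 peaks with small standard errors were changed by 4 log2 units. Of these 198 were called, with 8 other calls. The noise was drawn from the normal spread that the test assumes. The simulation therefore checks the code, and does not give the error rate of calls at low counts. Python 3.11.15, numpy 2.4.6, pandas 2.3.3, scipy 1.17.1, pysam 0.24.0 and matplotlib 3.10.9 were used.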

Additional observations from a re-analysis of the deposited data

Results flagged for a closer look

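Columns of the deposited table mark some genes as down or up, and the report does not draw on them. How they were made is not given in the sources used here. Of the 335 first-intron peaks lower in dTAG13, 30 (8.96%, Wilson interval 6.34 to 12.5%) had a nearby gene marked as down. The share was 4.42% (230 of 5204) in first-intron peaks that were not called, and 8.83% (59 of 668) in lower peaks of later introns. Epb41l1, Efna5, Tox3 and Ror2 are among the genes marked. Genes marked as up were near 6 of 99 higher first-intron peaks (6.06%, 2.81 to 12.6%), an interval that holds the 5.30% of uncalled peaks.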

How the results depend on the processing

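Recentring, GC centring, the filter at a mean normalized count of 5, a stricter adjusted p, other windows and the distance limits were planned. Leaving out Gm20388, agreement over transcripts, host as nearby gene and recentred medians were chosen after seeing the data. They were run like the others. No paired analysis was possible because values per library are not analysed here, and for the same reason no library could be left out and neither edgeR nor DESeq2 was run. Counts of lower and higher calls moved to 203 and 185 with GC deciles centred, where 201 of the 335 lower calls remained, and to 129 and 24 at an adjusted p under 0.01. The lower share of first introns moved to 5.06% with the median of all peaks at 0, 7.58% with that of peaks in both lists at 0, 3.71% within GC deciles and 8.30% at a mean count of at least 5. The higher share moved to 2.68%, 1.37%, 3.38% and 2.54% in the same order. The lower share exceeded that of later introns under all 12 alternatives, by 0.391 points (intron 2 alone) to 1.61 (3 to 50 kb), but the interval included 0 in 6 of them: intron 2 alone, beyond 10 kb, 1 peak per gene, the redrawn annotation, host as nearby gene and without Gm20388. The higher share's difference reversed to -0.258 points against intron 2, -0.189 beyond 10 kb, -0.039 with peaks in both lists at 0, -0.291 within GC deciles and -0.081 at a mean count of at least 5. The cause was not tested. The median change reversed to 0.0302 in peaks of both lists. The OTX share of lower, uncalled and higher peaks was 19.7%, 6.88% and 0% within 50 bases, and 12.5%, 4.32% and 1.01% for GGGATTA. The reversed word gave 17.0% and 8.19% in lower and uncalled peaks. Uncalled peaks had 8.47% over the whole peak, 14.1% at low and 8.71% at high GC, and higher peaks 0% at low GC. With an overlap of 50% of the peak, 27.7% were in both lists, 57.1% in DMSO and 15.0% in dTAG13 alone. The density ratio was 1.18 with all transcripts. Most peaks rest on few reads, which limits what can be called.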
